A study of Glycine max with 4 samples.

Results

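Cotyledons of late-maturation (AA1) soybean embryos were compared with cotyledons of mid-maturation (B1) embryos, the interval over which the green embryo turns yellow. The comparison uses 2 of the 4 libraries of the series, 1 library at each stage. The AA1 pair of cotyledons was yellow at a weight of 200 to 350 mg, and the B1 pair green at 150 to 250 mg. Both came from greenhouse plants of the cultivar Williams 82, and in both the seed coat and the axis had been dissected away. Libraries of whole dry seeds and of cotyledons of seedlings 6 days after imbibition were used to set the scaling and to follow the gene models afterwards. The dry seeds were not dissected and so held a little seed coat and axis. The number of plants or embryos behind a library is not given in the sources used here. A difference between the stages therefore has no replicate check, carries no p-value, and stage and preparation cannot be told apart.

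The soybean cotyledon is the storage organ of the seed. During mid-maturation it is green and lays down storage protein and oil, and a small number of genes for storage globulins, protease inhibitors and other seed proteins are known to be transcribed at very high levels. In late maturation filling ends, chlorophyll is lost and the embryo becomes tolerant of drying, a state for which late embryogenesis abundant proteins and protective sugars are known. The deposited identifiers are not paired with gene names: 0 of the 66210 gene models matched the reference table of 59048 soybean genes. Known seed genes could therefore not be looked up, the tissue was not checked against marker genes, and no gene sequence was matched. Gene models are described by chromosome and by their order along it, both read from the identifiers.

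Levels are given in scaled CPM, the count of a gene model per 1000000 of a library size adjusted with TMM (trimmed mean of M-values) factors from the 4 libraries. AA1 held 38011608 counts and B1 held 16120894. A gene model entered the comparison with at least 1 scaled CPM in AA1 or B1, and 29154 of 66210 did. Counts under 3 were set to 3 before a ratio was taken, which corresponds to 0.07 scaled CPM in AA1 and 0.32 in B1. A gene model is called higher or lower where the ratio of AA1 over B1 is at least 4-fold. The files give no gene lengths, so a higher level of one gene model than of another is more reads, not more transcripts. Intervals are exact 95% intervals and cover counting error only. In bulk tissue, fewer cells of a type and less RNA per cell cannot be told apart.

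The differences between the stages were large and uneven. The ratio was at least 4-fold higher in AA1 for 3836 gene models, 13.2% of those entered, and at least 4-fold lower for 4828, or 16.6%. At least 10-fold distances were found for 1056 higher gene models (3.62%) and 2616 lower ones (8.97%). Within 2-fold of equal were 12034 gene models, or 41.3%. The middle 50% of the log2 ratios lay between -1.19 and 1.29, with a median of 0.19. The balance depends on the level of the gene models and on the scaling. Among gene models with 1 to 10 scaled CPM in the higher library, 385 were at least 10-fold higher and 1680 lower. The floor in B1 limits higher calls more there, and how far it shaped these counts was not tested. An entry of 5 scaled CPM in either library left 2700 at least 4-fold higher and 2763 lower. With total counts every ratio of AA1 over B1 is 1.81 times as large as with TMM, the median log2 ratio was 1.15, 8216 gene models were higher and 2727 lower, and 2396 were 10-fold higher and 1513 lower. With DESeq2 size factors 3220 were higher and 5411 lower. Under each of 6 scalings, 3116 gene models were called higher and 2727 lower, which in each direction is the smallest count of a single scaling. Another scaling multiplies all ratios by a common factor, 0.867 to 1.81 relative to TMM. No gene model could therefore be called in opposite directions by TMM and another scaling. The plot of levels in the 2 libraries shows how far the lower group extends at the abundant end.

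**Figure D1:**
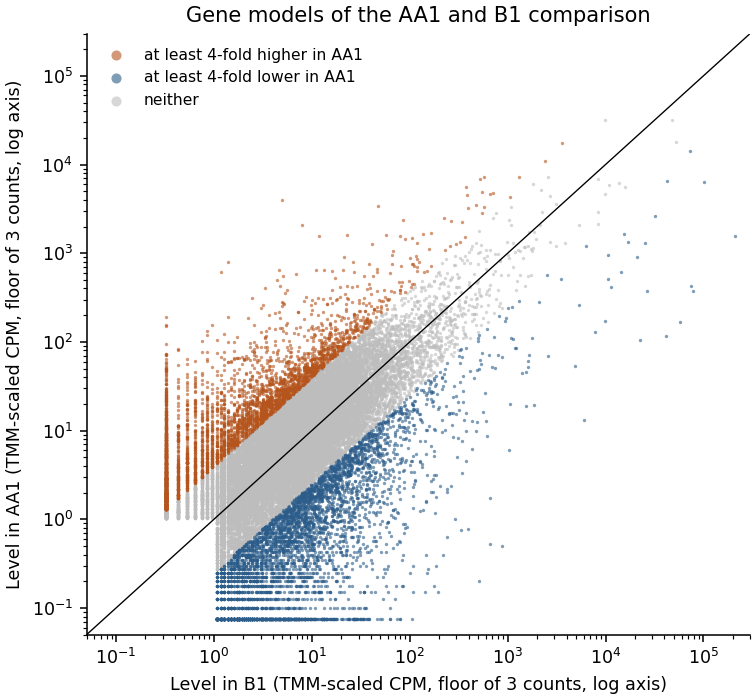
Level of each of the 29154 gene models in AA1 (vertical axis) against B1 (horizontal axis), in TMM-scaled CPM on log axes, with counts under 3 drawn at 3. The 3836 gene models at least 4-fold higher in AA1 and the 4828 at least 4-fold lower are coloured, the diagonal marks equal levels, and the most abundant gene models of B1, at the far right, lie under the diagonal.

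The loss in AA1 was carried by very few transcripts, and the gain by many. As a percentage of all counts, which needs no scaling, 60.1 percentage points moved between gene models. A total of 13675 gene models had a smaller percentage in AA1 than in B1, and 6 of them made up 50% of the loss. The single largest loss was 19.8% of it, the 10 largest 65.2% and the 100 largest 90.5%. On the other side 29214 gene models had a larger percentage in AA1, and 276 were needed for 50% of the gain. The single largest gain was 4.69% of it, the 10 largest 16.4% and the 100 largest 39.7%. In scaled CPM the picture was alike, with 7 gene models for 50% of the loss and 164 for 50% of the gain. Percentages of one library add to a fixed sum, so a loss by a few gene models is a gain for all others on that scale.

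The largest loss belonged to Glyma13g36400 on chromosome 13, the most abundant gene model of B1. It had 1563 scaled CPM in AA1 against 208000 in B1, from 62644 and 1947456 counts. It held 0.165% of AA1 counts (interval 0.164% to 0.166%) and 12.1% of B1 counts (12.06% to 12.10%). With TMM the level in AA1 was 133-fold lower (132 to 134), and the gene model ranked 59 by abundance in AA1. The ratio of AA1 over B1 was 0.00752 with TMM, 0.0136 with total counts and 0.00668 with DESeq2 size factors. Dry seed had 201 scaled CPM and seedling cotyledons 4.96, so each later library was lower again.

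Glyma10g04280 on chromosome 10 showed the next largest loss. It had 6335 scaled CPM in AA1 against 101107 in B1, 16.0-fold lower (15.9 to 16.0) with TMM. The ratio of AA1 over B1 was 0.0627 with TMM, 0.114 with total counts and 0.0557 with DESeq2 size factors. Its rank was 13 in AA1 and 2 in B1. This transcript thus remained among the abundant ones of the yellow cotyledon. It then stood at 1179 scaled CPM in dry seed and 8.63 in seedlings.

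The abundant B1 transcripts differed widely in this ratio. Among the 10 gene models with the largest losses the ratio was between 2.92-fold and 358-fold lower in AA1, with a median of 74.5-fold. At least 4-fold lower were 9 of the 10. These folds are with TMM, and with total counts every ratio of AA1 over B1 is 1.81 times as large, so each loss is smaller. Together they held 5.31% of AA1 counts and 44.1% of B1 counts, then 2.26% in dry seed and 0.0746% in seedlings. They lay on 7 chromosomes. The 358-fold lower one, on chromosome 12, had 116 scaled CPM in AA1 and 41465 in B1, and of the 10 it was the highest in seedlings, at 407 scaled CPM. The 2.92-fold lower one, on chromosome 15, had 17877 scaled CPM in AA1 and 52230 in B1 and was the third most abundant of AA1. In none of the 10 was the dry-seed level above that of AA1.

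The largest gain belonged to Glyma09g31740 on chromosome 9, the most abundant gene model of AA1 and of dry seed. It had 32172 scaled CPM in AA1 against 9898 in B1, 3.25-fold higher (3.23 to 3.27). It held 3.39% of AA1 counts and 0.575% of B1 counts and ranked 26 in B1. The ratio is under the 4-fold rule with TMM and was 5.90 with total counts and 2.89 with DESeq2 size factors. In dry seed it stood at 20668 scaled CPM and in seedlings at 188.

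Glyma10g35100 on chromosome 10 showed the next largest gain. It had 17603 scaled CPM in AA1 against 3594 in B1, 4.90-fold higher (4.85 to 4.95). It ranked 4 in AA1 and 38 in B1, and its level was 9189 scaled CPM in dry seed and 43.2 in seedlings. Both of the largest gains were thus already abundant in the green cotyledon.

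The 10 largest gains were 2.85-fold to 15.0-fold higher in AA1, with a median of 5.22-fold, and 7 of the 10 were at least 4-fold higher. They held 11.2% of AA1 counts and 1.37% of B1 counts, then 9.93% in dry seed and 0.206% in seedlings. Their levels were 4940 to 32172 scaled CPM in AA1 and 372 to 9898 in B1. In 5 of the 10 the level in dry seed was above that in AA1. None exceeded 893 scaled CPM in seedlings. The 10 gains and the 10 losses were picked for their differences, so these values describe them and test nothing.

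**Figure D2:**
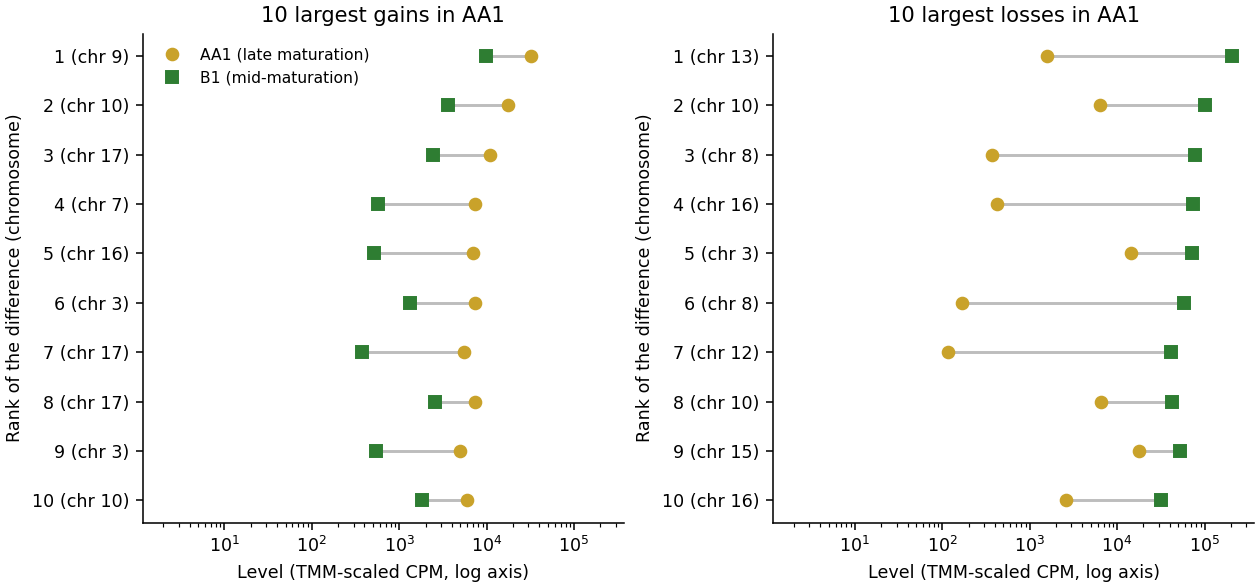
Levels in AA1 (circles) and B1 (squares), in TMM-scaled CPM on a shared log axis, for the 10 gene models with the largest gain (left) and the 10 with the largest loss (right) in AA1, each labelled by rank and chromosome. The losses span 2.92-fold to 358-fold, and the gains 2.85-fold to 15.0-fold.

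The most abundant transcripts of each stage were then followed into the other. Of the 20 most abundant gene models of AA1, 7 were at least 4-fold higher than in B1 and 3 were at least 4-fold lower. Over all entered gene models 13.2% were higher and 16.6% lower. Of the 20 most abundant of B1, 16 were at least 4-fold lower in AA1, 6 of them at least 100-fold (0.847% of all gene models were), and 0 were 4-fold higher. These counts are with TMM and were not taken with the other scalings. AA1 and B1 had 7 of these 20 in common. Among the 500 most abundant of each library, 254 were shared, and 166 of the AA1 list and 186 of the B1 list were within 2-fold of equal. Both are smaller shares than the 41.3% over all entered gene models. A list picked for abundance in 1 library is favoured in that library.

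The share of gene models far apart was largest among abundant ones. The class with 1000 or more scaled CPM in whichever library was higher held 146 gene models, and 39 (26.7%) were 4-fold or more above B1 in AA1 and 46 (31.5%) lower. Between 100 and 1000 scaled CPM, 321 of 1323 (24.3%) were higher and 192 (14.5%) lower. Between 10 and 100, 1763 of 12622 were higher and 1578 (12.5%) lower. Between 1 and 10, 1713 of 15063 (11.4%) were higher and 3012 lower. Hence lower calls outnumbered higher ones in the most abundant and the least abundant class, and higher calls did so in between. Between 10 and 100 scaled CPM that order turned with DESeq2 size factors (1455 higher, 1817 lower) and with the upper quartile. The order there also turned with totals that leave out the 100 most abundant gene models of each of the 4 libraries. In the most abundant and the least abundant class it turned with total counts (54 higher and 26 lower, 3509 higher and 1944 lower). In the class from 1 to 10 the floor of 0.32 scaled CPM in B1 against 0.07 in AA1 limits higher calls more than lower ones. How far the floor shaped the order in that class was not tested. Over all classes, with AA1 counts thinned at random to the depth of B1, 3867 gene models were higher and 4847 lower.

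**Figure D3:**
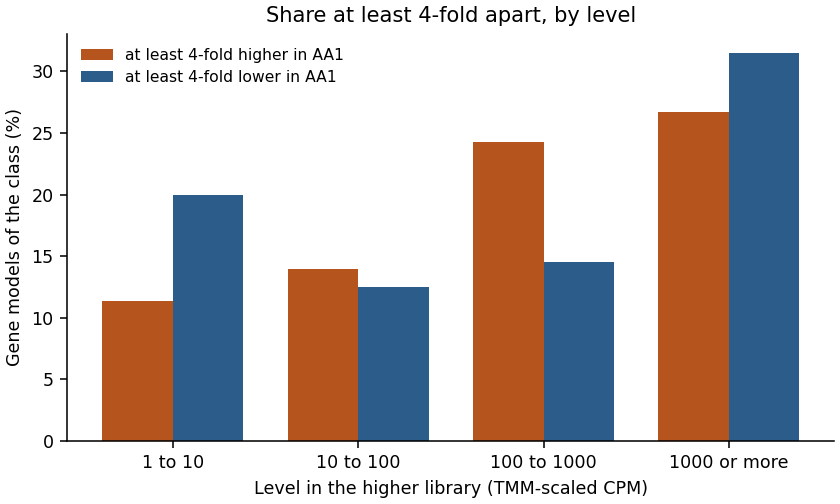
Percentage of gene models at least 4-fold higher (left bar) and at least 4-fold lower (right bar) in AA1, by the level in the higher library in TMM-scaled CPM. From the lowest to the highest class the classes hold 15063, 12622, 1323 and 146 gene models, and the higher share goes up from 11.4% to 26.7% across them.

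Transcripts found at 1 stage and at or under the floor at the other were few. At least 10 scaled CPM in AA1 with no more than 3 counts in B1 was found for 119 gene models, 40 of them with 0 counts in B1. Their median level in AA1 was 19.4 scaled CPM and the highest 193, and the median ratio against the floor of 3 counts in B1 was 60.5. Of the 119, 110 had at least 1 scaled CPM in dry seed and 104 in seedlings, with medians of 12.5 and 8.04 scaled CPM. Of all entered gene models 76.3% and 87.5% reached that level in these 2 libraries. Entry needed only 1 scaled CPM in AA1 or B1, against 10 here, so these shares are not matched for level. The converse, at least 10 scaled CPM in B1 with no more than 3 counts in AA1, was found for 99, 28 of them with 0 counts in AA1. Their median level in B1 was 17.0 scaled CPM and the highest 106, and the median ratio of B1 over the floor of 3 counts in AA1 was 226.8. Of these 99, 1 had at least 1 scaled CPM in dry seed and 50 in seedlings, both below the shares over all entered gene models. The 2 ratios differ also because the floor differs between the libraries.

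Both groups were followed into the 2 libraries that had not been used to choose them. For the 3836 higher gene models the median level in scaled CPM was 1.28 (B1), 12.8 (AA1), 12.6 (dry seed) and 6.93 (seedlings). The 4828 lower ones had medians of 6.41, 0.45, 0.26 and 3.10 in the same order. The 20490 gene models in neither group stayed between 6.84 and 8.42. By its median the lower group was thus low in dry seed as in AA1 and stood higher again in seedlings, though below B1. The median of the higher group was about as high in dry seed as in AA1.

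Dry seed was set against seedling cotyledons for the same gene models, a comparison that shares no library with AA1 against B1 apart from the scaling. Of the 3836 gene models higher in AA1, 1371 (35.7%) had a dry-seed level at least 4-fold above that of seedlings, against 15.6% of all 29154. Of the 4828 lower in AA1, 225 (4.66%) were. The opposite, seedlings at least 4-fold above dry seed, was found for 628 members (16.4%) of the higher group and for 2836 members (58.7%) of the lower one, against 24.1% of all. The shares of the higher group were 22.1% with total counts, against 10.8% of all, and 39.3% with the upper quartile, against 18.3%. For the lower group the shares lower in dry seed were 66.9% with total counts, against 27.7% of all, and 54.2% with the upper quartile, against 21.98%. Stage and the presence of seed coat and axis cannot be told apart here.

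**Figure D4:**
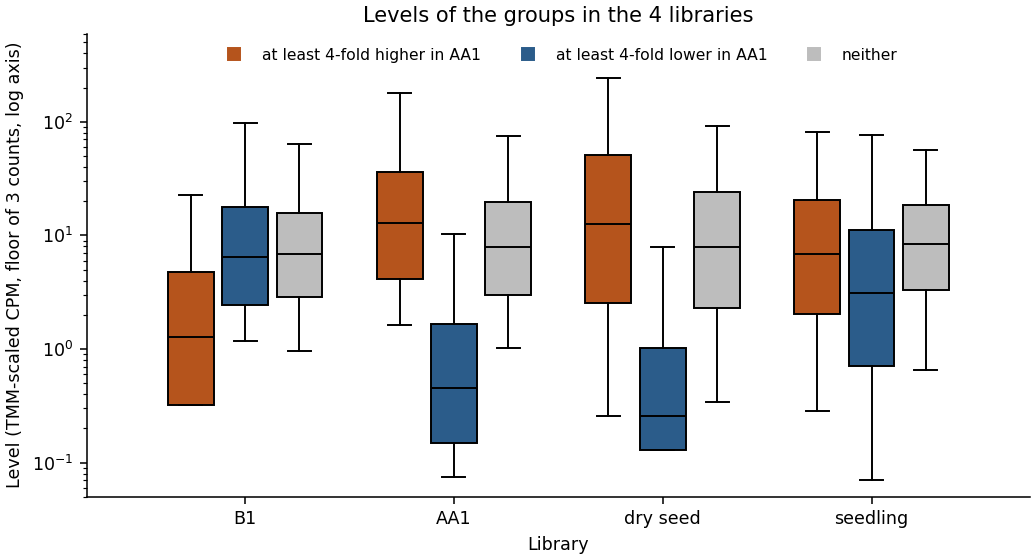
Levels of gene models at least 4-fold higher in AA1, at least 4-fold lower in AA1 and in neither group, in the 4 libraries, in TMM-scaled CPM on a log axis with counts under 3 drawn at 3. Boxes span the quartiles with the median as a line and whiskers reach the 5th and 95th percentiles; the lower group has its lowest median, 0.26, in dry seed, and 3.10 in seedlings.

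The lower group was detected less widely than gene models at large in dry seed and in seedlings. Its share was lowest in dry seed, as was the share over all gene models. The lower detection of the group in AA1 follows from the choice of members. All 4828 entered through B1, where 90.3% of all 29154 reached 1 scaled CPM. The shares in dry seed and seedlings are therefore not matched for entry, and what this contributes was not tested. At least 1 scaled CPM was reached by 1615 (33.5%) of the 4828 in AA1, where 85.7% of all 29154 did, by 1227 (25.4%) in dry seed, where 76.3% of all did, and by 3381 (70.0%) in seedlings, where 87.5% of all did. The seedling level was at or above that of B1 for 1410 (29.2%) of the lower group, and the dry-seed level for 70 (1.45%). Under 25% of the B1 level, or absent, were 1758 (36.4%) in seedlings and 4297 (89.0%) in dry seed. Their share of counts was 61.8% (B1), 5.94% (AA1), 2.21% for dry seed and 20.6% for seedlings. Of the 3836 gene models higher in AA1, 1817 (47.4%) were in dry seed at or above their AA1 level, and 612 (16.0%) were under 25% of it or absent there. Their share of counts was 2.10% (B1), 29.6% (AA1), 33.04% for dry seed and 16.0% for seedlings. The B1 and AA1 shares follow from the choice of members.

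Gene models that are neighbours along a chromosome had the same call in a larger share than gene models at large. On the chromosomes, 18.1% of the gene models that follow a higher one were higher themselves, against 13.2% of all. Of those that follow a lower one 20.2% were lower, against 16.6% of all. After a higher gene model 14.9% were lower, and after a lower one 10.7% were higher, both under the shares over all. Where the 2 identifiers had consecutive numbers, the same-call shares were 19.1% and 21.7%. With total counts the shares were 32.9% against 29.4% for higher and 13.9% against 9.77% for lower. These differences were not tested. Soybean carries many tandem gene copies, whose reads can be split or shared, and how the authors' counting treated them is not given in the sources used here.

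Runs of neighbours with the same call were short. With at least 3 members there were 102 runs higher in AA1, with 334 gene models or 8.71% of the higher group, and 169 runs lower, with 551 or 11.4% of the lower group. With at least 5 members there were 4 higher and 8 lower runs. Runs of at least 3 occurred on all 20 chromosomes in both directions. In the median higher run the most abundant member made up 64.0% of the level of the run in AA1, and in the median lower run 66.1% of that in B1. Run counts move with the scaling, with 586 higher and 55 lower runs for total counts. With neighbours taken among all gene models, entered or not, 47 higher and 75 lower runs were left.

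Gene models that did not enter are passed over in a run, so its members need not be next to each other. The longest run lay on chromosome 13, from number 17860 to 18000 of the identifiers, and was higher in AA1. Its members were numbered 17860, 17870, 17930, 17950, 17960, 17980, 17990 and 18000. Its 8 members, in order, had 60.8, 63.5, 21.4, 12.8, 1.97, 4515, 3.17 and 10.1 scaled CPM in AA1, against 5.66, 12.2, 0, 0.96, 0, 389, 0.64 and 1.17 in B1. The sixth stood far above the rest in both libraries and was the only one of the 8 over 100 scaled CPM. The run held 0.494% of AA1 counts and 0.0238% of B1 counts, the largest share among runs higher in AA1. The sixth member stayed at 4159 scaled CPM in dry seed and stood at 11.4 in seedlings, whereas the third had 1.12 in dry seed. Members of the run thus differed in what followed AA1.

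Another 2 higher runs had 5 members each. On chromosome 5, from number 32830, the levels were 366, 8.29, 4.34, 16.6 and 67.8 scaled CPM in AA1, against 89.2, 0.21, 0.43, 0 and 16.2 in B1. On chromosome 7, from number 39170, they were 45.7, 8.91, 147, 2.25 and 26.5 in AA1, against 7.16, 1.60, 27.4, 0.53 and 4.49 in B1. The log2 ratios of the chromosome 7 run were alike, from 2.07 to 2.67, although its levels differed widely. A run of 3 on chromosome 9, from number 25810, had 2.35, 3.49 and 2353 scaled CPM in AA1, against 0.21, 0.11 and 85.1 in B1, and held 0.249% of AA1 counts.

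Among runs lower in AA1 the longest had 6 members and lay on chromosome 18, from number 4440 to 4500. Its levels were 0.35, 0.47, 1.70, 1.65, 0.32 and 16.0 scaled CPM in AA1, against 1.60, 15.0, 11.7, 8.76, 8.12 and 87.5 in B1. No member of it was abundant. In seedlings 5 of the 6 had between 4.80 and 33.5 scaled CPM, and the fifth had 0 counts there and in dry seed.

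A run of 5 on chromosome 12, from number 34500 to 34610, held the largest share of counts of any run lower in AA1, 0.0129% of AA1 and 2.42% of B1. Its levels were 0.22, 5.14, 116, 1.27 and 0.10 scaled CPM in AA1, against 5.66, 176, 41465, 67.2 and 2.56 in B1. The third is the gene model with the 358-fold difference among the 10 largest losses. Levels in B1 declined on both sides of it. In seedlings the second had 1139 scaled CPM and the third 407, so the order of these 2 neighbours was the opposite of that in B1.

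On chromosome 2, from number 46990 to 47040, a run of 5 had 10.1, 0, 0.42, 0.25 and 0.10 scaled CPM in AA1, against 94.7, 4.59, 57.8, 56.3 and 1.07 in B1. All 5 were under 0.2 scaled CPM in seedlings. On chromosome 13, from number 42310 to 42330, a run of 3 had 171, 616 and 0.07 scaled CPM in AA1, against 9977, 14534 and 1.07 in B1, with 3 counts in AA1 and 10 in B1 for the third. The third had 4254 scaled CPM in seedlings, where the first and second had 2.54 and 2.35. Neighbours that shared a direction here were thus opposite in level in the seedling cotyledon.

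**Figure D5:**
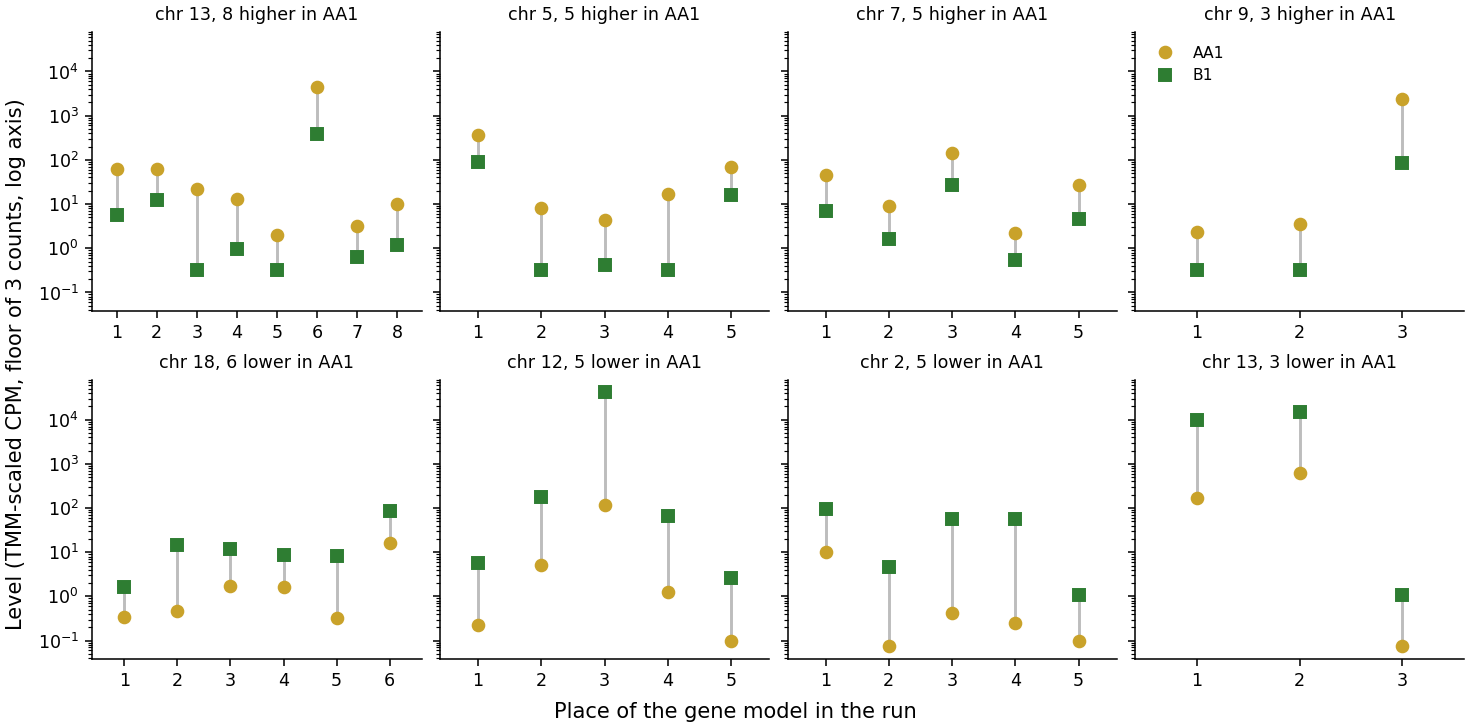
Levels in AA1 (circles) and B1 (squares), in TMM-scaled CPM on a log axis with counts under 3 drawn at 3, for the members of 8 runs of neighbouring entered gene models in their order along the chromosome. The upper panels hold runs higher in AA1 and the lower panels runs lower in AA1, and in the runs on chromosomes 9, 12 and 13 (8 members) a single member stands far above the others in both libraries.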

How the data were processed

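The authors deposited, per the file headers, the number of mapped reads for each gene model, as raw counts with no normalization. Per the submitters' processing notes Bowtie was used. Its version, the genome build, annotation, counting program and treatment of multiply mapped reads were not given in the sources used here. Per the labels' protocols, poly-A RNA was selected in 2 rounds, copied with random primers without a strand mark, amplified for 15 cycles and read over 76 bp, so antisense overlaps cannot be separated and PCR copies count as reads.

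All 66210 gene models were kept and 0 rows lacked an identifier. Library sizes were scaled by TMM (edgeR 4.0.16, R 4.3.3), with factors of 1.05 for AA1 and 0.581 for B1. Ratios, exact binomial intervals, shares and runs were computed in Python 3.11.15 with SciPy 1.17.1, and the steps were tested on simulated data. Runs are unbroken series of entered gene models with 1 call. DESeq2 1.42.0 size factors were an alternative. With 1 library a stage no test across samples was made. The rule for identifiers named the 2 largest gains and the 2 largest losses in scaled CPM. For runs it took the 3 longest and the 2 with the largest share of counts in each direction. Lists by product keyword were not run, since no identifier matched a name. The members and rules were chosen with earlier results of these data known.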

Additional observations from a re-analysis of the deposited data

How the results depend on the processing

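Of 36 alternative counts of gene models and runs, 18 stayed within 1.5 times of the reported count. The 36 include longer minimum run lengths and a 2-fold rule for runs, which change what is counted rather than the processing. Of 24 alternative shares of counts, 18 stayed within 1.5 times and 0 within the counting interval. The 3836 gene models higher in AA1 became 8216 with total counts and 2700 with an entry of 5 scaled CPM. They became 2238 with a pseudocount of 1 scaled CPM and 2070 when the interval bound had to reach 4-fold. The 4828 lower ones became 2727 with total counts, 2763 with an entry of 5 scaled CPM and 2488 with the pseudocount. Among gene models at least 4-fold apart, 44.3% were higher with TMM, 75.1% with total counts and 36.2% to 47.2% with the other scalings. The 102 runs higher in AA1 became 586 with total counts, 62 with DESeq2 size factors, 62 with the upper quartile and 47 with neighbours among all gene models. The minimum of 4 members left 21 runs, that of 5 left 4, and a 2-fold rule gave 702. The 169 lower runs became 55 with total counts, 75 with neighbours among all gene models, 35 with at least 4 members, 8 with at least 5 and 536 with the 2-fold rule.

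The shares of counts of the higher group in B1, AA1, dry seed and seedlings were 5.90%, 49.8%, 57.4% and 29.1% with total counts. They were 1.71%, 26.6%, 29.5% and 14.3% with DESeq2 size factors and with the upper quartile. Those of the lower group were 52.0%, 2.66%, 1.07% and 14.7% with total counts. They were 62.9%, 6.46%, 2.54% and 21.9% with the other 2 scalings. The 4 other scalings tried for the 4 named gene models shift every ratio by a common factor between 0.889 and 1.81. That is too little to turn the direction of these 4 ratios. The comparisons of dry seed with seedlings and of neighbours under other scalings were added after seeing the data. No paired analysis was possible because each stage has 1 library. Depth limits low levels most in B1, where 3 counts are 0.32 scaled CPM.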

Other observations

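The changed gene models were spread over the genome by number. Over the 20 chromosomes, higher gene models made up 11.9% (chromosome 10) to 14.7% (chromosome 17) of those entered, and lower ones 14.7% (chromosome 20) to 18.7% (chromosome 9). From the middle of a chromosome's numbering to its ends, the lower share was 15.2%, 15.0%, 16.5%, 17.4% and 17.1% in 5 equal steps, and the higher share 13.8%, 14.2%, 13.0%, 13.0% and 12.8%. Of 72 gene models on no numbered chromosome, 7 were higher and 9 lower.

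The weight of the chromosomes in the transcript pool differed far more. Chromosome 13 held 6.66% of AA1 counts against 18.2% of B1 counts, chromosome 9 held 7.16% against 2.94%, and chromosome 17 held 7.25% against 2.21%. Without the 10 most abundant gene models of B1, chromosome 13 held 7.09% in AA1 and 11.2% in B1, chromosome 9 held 7.81% and 5.35%, and chromosome 17 held 7.91% and 4.01%. None of those 10 lies on chromosome 9 or 17, so the abundant gene models of AA1 stayed in there. Glyma09g31740 alone held 3.39% of AA1 counts and 0.575% of B1 counts. On chromosome 17 the third, seventh and eighth largest gains held 1.14%, 0.587% and 0.768% of AA1 counts, against 0.140%, 0.0216% and 0.149% of B1 counts.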
